A study of Mus musculus with 16 samples.

Results

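NuRD, the nucleosome remodelling and deacetylase complex, is represented here by 10 genes that encode its subunits: Mbd3, Mbd2, Mta1, Mta2, Mta3, Gatad2a, Gatad2b, Chd4, Hdac1 and Cdk2ap1. They were taken by name and not by a rule on measured values, but with earlier results of these data known. In the array table used, each gene is read by its probe set of highest mean signal among those with a single gene symbol. Of the 10 genes, 9 had such a probe set, out of 30102 genes in all, and all 9 passed the filter on dim signals that left 22872 genes for testing. The only probe set of Chd4, the remodelling ATPase, also carries the symbol of the microRNA gene Mir7045, which lies inside Chd4, and so no value is given for Chd4. The other subunit genes Hdac2, Rbbp4, Rbbp7, Chd3 and Chd5 each had a probe set and are described beside the members.

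The study measured total RNA of 8 mouse embryonic stem cell (ESC) lines, each grown with leukaemia inhibitory factor (LIF) and after 12 days without it, on 16 Affymetrix arrays. EBRTcH3 is the wild type, a male line of strain 129SV. Every other line is a derivative of EBRTcH3 in which the MBD3a, MBD3b and MBD3c isoforms were knocked out, and which then received a stable vector. The vector supplied MBD3a, MBD3b, MBD3c, MBD3a lacking the methyl-CpG-binding domain (the MBD-deleted line), MBD3a lacking the coiled coil (coiled-coil-deleted), MBD3a lacking both (doubly deleted), or no insert (empty vector). The promoter of the vector is not named in the labels, and each line is present once in each condition. The sample titles name each construct, and MBD3b and MBD3c are taken here to keep the coiled coil. EBRTcH3, the 3 isoform lines and the MBD-deleted line then retain an MBD3 coiled coil (5 lines, called retaining). The empty vector line and both lines whose insert is without it do not (3 lines, called lacking). Lines therefore stand in for replicates, so a p-value reflects only how lines differ, which may be technical. A statement that the classes do not overlap describes the values of that gene only. The share of all tested genes without overlap was not counted. Values are log2 signals, so that a difference of 1 is a doubling, and signals of different genes are not compared with each other because they come from different probes.

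NuRD joins a chromatin remodelling ATPase of the CHD family to the histone deacetylases HDAC1 and HDAC2. MBD2 and MBD3 are alternative members of the complex, MTA proteins form its scaffold with the deacetylases and the histone-binding proteins RBBP4 and RBBP7, and GATAD2 proteins bridge the MBD and CHD subunits. The coiled coil of the MBD subunit is a known contact for GATAD2 proteins. In mouse ESCs, MBD3 and NuRD are known for their role in leaving the self-renewing state when LIF is removed.

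The arrays were alike in overall signal, with medians of 4.72 to 4.85 and correlations between arrays of 0.971 to 0.995. The deposited values were already normalized between arrays by RMA, so alike medians are no measure of the quality of the arrays. The 8 ESC markers, among them Pou5f1, Nanog and Klf4, exceeded the filter level (the 40th percentile of each array) on all 16. Their mean log2 signal was 11.7 to 11.92 in the retaining lines and 11.72 to 11.86 in the lacking lines with LIF. Without LIF it was 10.55 to 11.04 in the retaining lines and 11.19 to 11.32 in the lacking lines. The mean of 5 measured trophoblast markers (of 6 listed) was 6.62 to 7.19 with LIF and 8.61 to 9.64 without it in the retaining lines, and 7.02 to 7.46 and 7.86 to 8.1 in the lacking lines. The 5 did not move together. In the retaining lines Cdx2, Krt8 and Krt18 rose, while Tfap2c fell from 9.18 to 9.88 with LIF to 7.93 to 9.20 without it. In the lacking lines Krt8 and Elf5 rose, Elf5 from 4.87 to 5.00 with LIF to 6.08 to 6.46 without it. The mean of the 6 fibroblast feeder markers lay between 4.88 and 5.46 in all groups, with Lum and Postn below the filter, so that 4 were tested. On LIF withdrawal 3 of these 4, Dcn (1.05), Col1a1 (0.77) and Col3a1 (0.30), rose in the retaining lines, where NuRD members also rose, and 0 of 4 passed in the lacking lines (Thy1, the lowest, at -0.43 had an adjusted p of 0.0696). Without LIF these 3 were lower in the lacking lines, and Thy1 was higher there both with LIF (1.33) and without it (0.79). Dcn exceeded the filter level on only 3 arrays, all of retaining lines without LIF, where it was 4.07 to 4.71, near that level. Its calls therefore rest on the group that let it pass the filter. The 9 measured proliferation genes had means of 10.67 to 10.89 in all groups. The part of these marker changes in the results on NuRD genes was not tested. The RNA comes from whole cultures, in which fewer cells of a type and less RNA per cell cannot be told apart. Sample titles are numbered in 2 runs, the first with EBRTcH3, MBD3a, MBD3b, MBD3c and the empty vector and the second with the 3 deletion lines, so run and class are partly mixed. What the runs stand for is not stated.

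Promoter sequences were found in a RefSeq table for 7 of the 10 members, Mbd3, Mta1, Mta2, Gatad2a, Gatad2b, Chd4 and Cdk2ap1. Those of Mta1, Gatad2a and Cdk2ap1 are printed because these genes rose after LIF withdrawal across the lines, and that of Gatad2b because it fell in the retaining lines. Each is the 250 bases before a transcript start on GRCm38.p6, printed on the coding strand. Capitals mark GGGCGG on either strand, a GC box, so that CCGCCC is its reverse complement.
Mta1: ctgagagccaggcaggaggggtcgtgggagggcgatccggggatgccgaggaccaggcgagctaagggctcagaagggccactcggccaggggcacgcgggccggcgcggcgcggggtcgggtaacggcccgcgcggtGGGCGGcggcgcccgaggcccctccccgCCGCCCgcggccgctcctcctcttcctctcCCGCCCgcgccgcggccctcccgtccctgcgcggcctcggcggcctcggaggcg
Gatad2a: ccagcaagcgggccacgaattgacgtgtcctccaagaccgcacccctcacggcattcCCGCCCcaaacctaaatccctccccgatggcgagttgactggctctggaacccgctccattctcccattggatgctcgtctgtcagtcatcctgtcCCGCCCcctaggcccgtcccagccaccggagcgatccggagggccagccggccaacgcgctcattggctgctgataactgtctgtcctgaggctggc
Cdk2ap1: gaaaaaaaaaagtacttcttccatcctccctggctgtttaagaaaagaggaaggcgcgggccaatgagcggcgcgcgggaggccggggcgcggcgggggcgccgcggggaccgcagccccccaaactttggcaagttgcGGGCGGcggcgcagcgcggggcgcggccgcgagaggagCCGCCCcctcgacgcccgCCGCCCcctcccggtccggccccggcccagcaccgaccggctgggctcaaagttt
Gatad2b: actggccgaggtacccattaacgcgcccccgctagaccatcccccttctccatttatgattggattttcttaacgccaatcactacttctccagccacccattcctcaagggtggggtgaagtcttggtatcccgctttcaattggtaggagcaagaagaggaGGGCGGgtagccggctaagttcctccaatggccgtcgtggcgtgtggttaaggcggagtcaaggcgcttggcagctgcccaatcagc
The Mta1 window lies at chr12:113098028-113098277 on the plus strand, Gatad2a at chr8:69996385-69996634 on the minus strand, Cdk2ap1 at chr5:124354629-124354878 on the minus strand and Gatad2b at chr3:90292931-90293180 on the plus strand. The Mta1 window holds 39 CpG dinucleotides and 3 GC boxes. The Cdk2ap1 window holds 34 CpG dinucleotides, 3 GC boxes and 1 CCAAT box (CCAAT, either strand). The printed Gatad2a window has 18 CpG dinucleotides, 2 GC boxes and 2 CCAAT boxes. A further Gatad2a window, not printed (chr8:69974384-69974633), has 20 CpG dinucleotides, 3 GC boxes and 0 CCAAT boxes. The printed Gatad2b window has 13 CpG dinucleotides, 1 GC box and 5 CCAAT boxes. A further Gatad2b window, not printed (chr3:90293836-90294085), has 14 CpG dinucleotides, 1 GC box and 1 CCAAT box. For both genes the printed window is the one nearest to the gene start. Over 32851 promoter windows of this length the median CpG count was 6, and 32.7% held a GC box and 33.8% a CCAAT box. The motif TTCNNNGAA, searched on both strands as the form bound by STAT factors, was present in 7.02% of all windows and matched in none of the member windows.

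Mbd3, the MBD subunit that was removed and replaced, checks the label of the empty vector line, but not which MBD3 insert a line carries. With LIF its log2 signal was 9.10 for EBRTcH3, 9.09 in MBD3a, 9.15 in MBD3b, 8.65 in MBD3c, 8.96 in the MBD-deleted line, 9.12 in the coiled-coil-deleted line, 8.48 in the doubly deleted line and 7.00 with the empty vector. Without LIF the same lines gave 9.17, 8.96, 9.59, 8.57, 8.56, 9.02, 8.45 and 7.45. The empty vector line was the lowest in both conditions, and the 6 lines with an MBD3 vector differed from EBRTcH3 by less than a doubling. MBD3b without LIF was the highest, at 9.59 against 9.17 in EBRTcH3. It was 0.63 above MBD3a there (1.55-fold, 1 array against 1 array), where 2.22% of all tested genes differed by at least 1.5-fold. The signal with the empty vector still exceeded the filter level, which was 4.24 to 4.38 over the arrays, and its source was not tested. A single probe set reads Mbd3, and whether it reads endogenous or vector transcripts, or both, was not tested. Against EBRTcH3 the empty vector line differed by -2.10 with LIF and -1.72 without it, 1 array against 1 array with no replicate check. Mbd3 was the only member that differed by at least 1.5-fold between these lines in each condition, where 10.6% of all tested genes did so with LIF and 15.4% without it.

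The class difference of Mbd3, lacking minus retaining, was -0.79 ± 0.36 (SE, n = 3 and 5 lines) with LIF and -0.66 ± 0.34 without it, with limma adjusted p-values of 0.177 and 0.208. Within the first run of titles, where the empty vector line is the only lacking line, it passed (-2.0, adjusted p 0.00772, with LIF and -1.62, adjusted p 0.0321, without it). It also passed with LIF when the coiled-coil-deleted line was left out. The difference rests on the empty vector line: without the empty vector line the difference was -0.19 with LIF and -0.24 without it. LIF withdrawal moved Mbd3 by between -0.40 (MBD-deleted) and 0.45 (empty vector), and the mean change over the 8 lines was 0.03 ± 0.10 with an adjusted p of 0.869.

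Mbd2, the alternative MBD subunit, had log2 signals with LIF of 9.62 for EBRTcH3, 9.52 in MBD3a, 9.34 in MBD3b, 9.20 in MBD3c, 9.09 in the MBD-deleted line, 9.59 in the coiled-coil-deleted line, 9.74 in the doubly deleted line and 9.85 with the empty vector. Without LIF these lines gave 9.90, 9.73, 9.40, 9.66, 9.36, 9.77, 9.83 and 9.79. The classes overlapped in both conditions. The class difference was 0.37 ± 0.13 with LIF (adjusted p 0.0918), and it passed with the title run as a covariate (0.50, adjusted p 0.0363). After withdrawal it was 0.19 ± 0.12 (adjusted p 0.34). In the retaining lines Mbd2 was 0.26 ± 0.08 higher after LIF withdrawal, with an adjusted p of 0.0262 and a rise in 5 of 5 lines. Over all 8 lines the change was 0.19 ± 0.07 with an adjusted p of 0.0668, and it passed without the empty vector line. The retaining-line call was lost under 7 of 19 alternatives, among them without EBRTcH3, without MBD3a, without MBD3c and within the first run of titles, with values of 0.15 to 0.31.

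**Figure D1:**
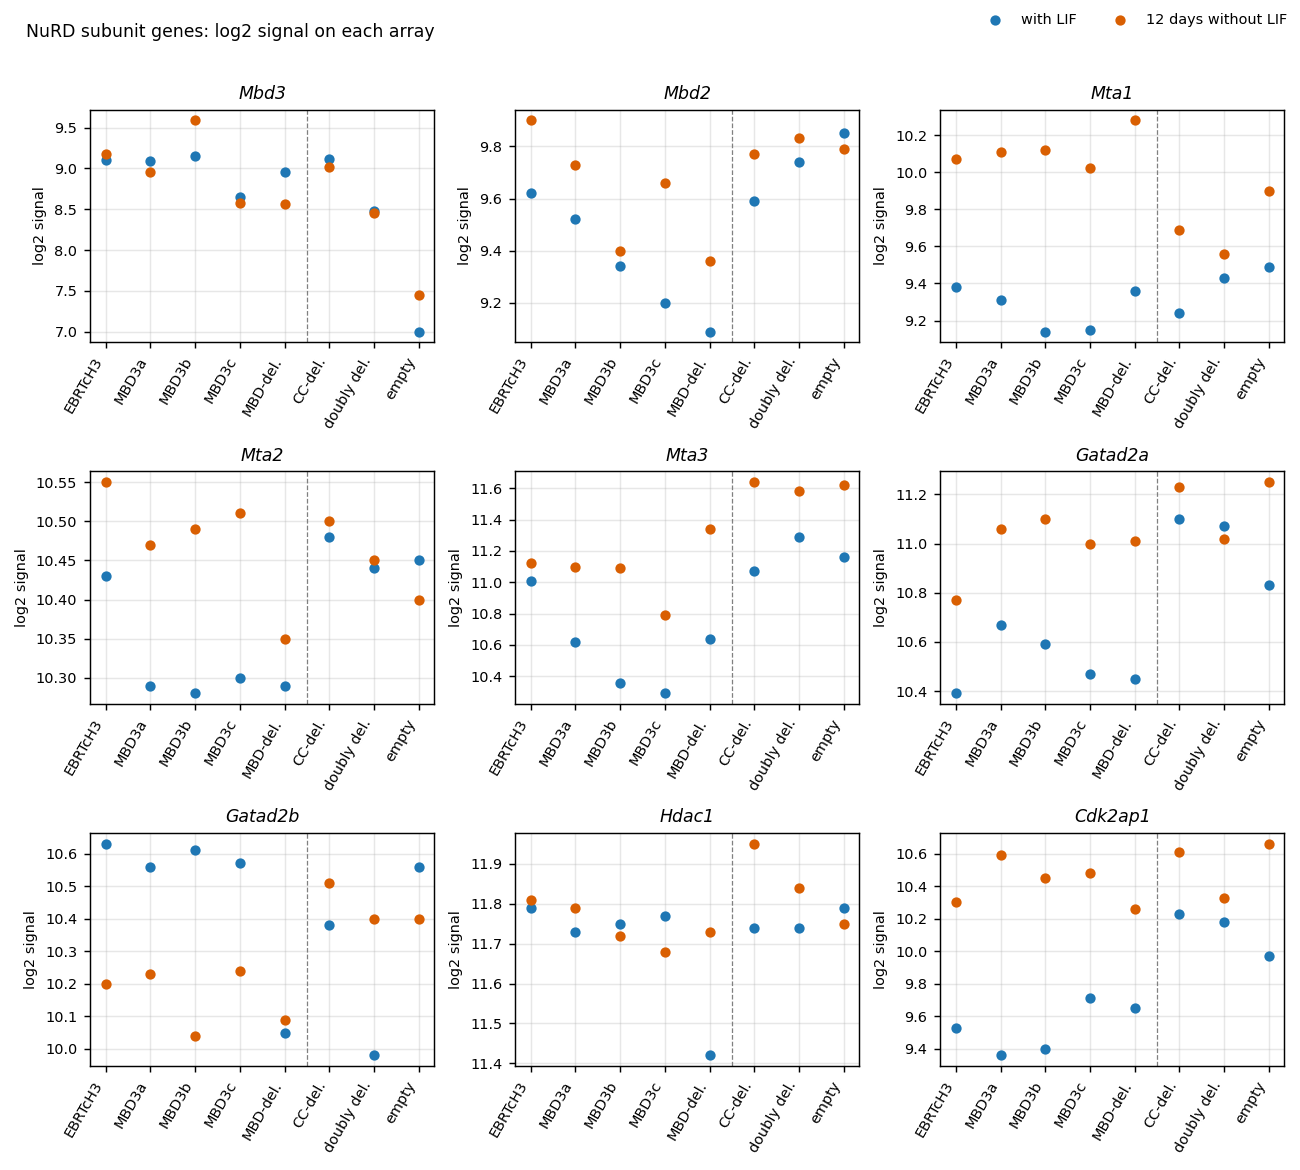
Log2 signal of the 9 measured members on each of the 16 arrays, with LIF (blue) and after 12 days without it (orange). Lines right of the dashed line lack an MBD3 coiled coil. Mbd3 is lowest in the empty vector line in both conditions, and the 5 retaining lines without LIF are the highest samples for Mta1 (10.02 to 10.28).

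Mta1, a scaffold subunit gene, was higher after LIF withdrawal in every line, and by less in each lacking line than in any retaining line. With LIF its signal was 9.38 for EBRTcH3, 9.31 in MBD3a, 9.14 in MBD3b, 9.15 in MBD3c, 9.36 in the MBD-deleted line, 9.24 in the coiled-coil-deleted line, 9.43 in the doubly deleted line and 9.49 with the empty vector, so that the classes overlapped. Without LIF the same lines gave 10.07, 10.11, 10.12, 10.02, 10.28, 9.69, 9.56 and 9.90. The 3 lacking lines were then below all 5 retaining lines, by -0.40 ± 0.10 with an adjusted p of 0.0143. That class difference was lost without the coiled-coil-deleted line, without the doubly deleted line, and within the first (-0.18) and the second (-0.66) run of titles. Mta1 rose by 0.66 ± 0.10 over all lines, a 1.58-fold change, with an adjusted p of 0.00179, and by 0.85 ± 0.08 in the retaining lines, with an adjusted p of 1.28e-05. In the lacking lines it moved by 0.33 ± 0.10, which did not pass (adjusted p 0.129).

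The responses of Mta1 were 0.69, 0.80, 0.98, 0.87 and 0.92 in the retaining lines and 0.45, 0.13 and 0.41 in the coiled-coil-deleted, doubly deleted and empty vector lines. The difference of the response was -0.52 ± 0.13, with an adjusted p of 0.0244, and the 2 classes did not overlap. Mta1 was the only member of 9 that passed this test, against 12.1% of all tested genes, 7.9% of them in the direction of a smaller response in the lacking lines. The adjusted p was 0.0532 with the title run as a covariate, and the difference did not pass within the first run (-0.42) or the second (-0.63). It was also lost under median centring of the arrays, and without MBD3b, without MBD3c, without the coiled-coil-deleted line or without the doubly deleted line, with values of -0.63 to -0.42 over all alternatives.

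Mta2, the second MTA scaffold gene, lay between 10.28 and 10.55 on all 16 arrays. Its signal was higher in all 3 lacking lines (10.44 to 10.48) than in all 5 retaining lines (10.28 to 10.43) with LIF, but the difference of 0.14 did not pass (adjusted p 0.344). The response was 0.06 to 0.21 in the retaining lines and -0.05 to 0.02 in the lacking lines. Neither the response in the retaining lines (0.16, adjusted p 0.1) nor the difference of the response (-0.16, adjusted p 0.398) passed.

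Mta3, the third MTA gene, was higher after LIF withdrawal in every line and was higher in the lacking lines in both conditions. With LIF its signal was 11.01 for EBRTcH3, 10.62 in MBD3a, 10.36 in MBD3b, 10.29 in MBD3c, 10.64 in the MBD-deleted line, 11.07 in the coiled-coil-deleted line, 11.29 in the doubly deleted line and 11.16 with the empty vector. Without LIF it was 11.12, 11.10, 11.09, 10.79, 11.34, 11.64, 11.58 and 11.62. The classes did not overlap in either condition, and EBRTcH3 with LIF was the retaining line nearest to the lacking ones. The class difference was 0.59 ± 0.15 with LIF (adjusted p 0.0273) and 0.53 ± 0.11 without LIF (adjusted p 0.00802). The mean response was 0.48 ± 0.08 over the 8 lines, with an adjusted p of 0.00236. The response did not differ detectably between classes (-0.06, 95% interval -0.41 to 0.29). The difference with LIF was lost under 9 of 18 alternatives, which are the title run as a covariate (0.57, adjusted p 0.0762), the first and the second run alone (0.59 and 0.54), and leaving out MBD3a, MBD3b, MBD3c, the empty vector, coiled-coil-deleted or doubly deleted line, and its values were 0.51 to 0.70 over all alternatives. After withdrawal it was lost only within the runs of titles, with values of 0.59 and 0.27.

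Gatad2a, which encodes a GATAD2 bridging subunit, had signals with LIF of 10.39 for EBRTcH3, 10.67 in MBD3a, 10.59 in MBD3b, 10.47 in MBD3c, 10.45 in the MBD-deleted line, 11.10 in the coiled-coil-deleted line, 11.07 in the doubly deleted line and 10.83 with the empty vector. Without LIF the lines gave 10.77, 11.06, 11.10, 11.00, 11.01, 11.23, 11.02 and 11.25. The lacking lines were above every retaining line with LIF, and the classes overlapped without it. The class difference was 0.49 ± 0.11 with LIF (adjusted p 0.0125) and 0.18 ± 0.10 without LIF (adjusted p 0.236). Gatad2a rose by 0.36 ± 0.08 over all lines (adjusted p 0.00887) and by 0.47 ± 0.08 in the retaining lines (adjusted p 0.000972), in 5 of 5. In the lacking lines the change was 0.17 ± 0.11 (adjusted p 0.525), and the difference of the response was -0.31 ± 0.13 (adjusted p 0.173). The difference with LIF was lost within the runs of titles (0.30 and 0.63), and without the coiled-coil-deleted line or the doubly deleted line.

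Gatad2b, the other GATAD2 gene, moved in the opposite direction from Gatad2a in 4 of the 5 retaining lines. Its signal with LIF was 10.63 for EBRTcH3, 10.56 in MBD3a, 10.61 in MBD3b, 10.57 in MBD3c, 10.05 in the MBD-deleted line, 10.38 in the coiled-coil-deleted line, 9.98 in the doubly deleted line and 10.56 with the empty vector. Without LIF it was 10.20, 10.23, 10.04, 10.24, 10.09, 10.51, 10.40 and 10.40. The MBD-deleted line stood apart from the other retaining lines with LIF. In the retaining lines the response was -0.32 ± 0.11 with an adjusted p of 0.0321, and it was 0.04 in the MBD-deleted line. Leaving out EBRTcH3, MBD3a, MBD3b or MBD3c ended that call. The difference of the response, 0.45 ± 0.17, did not pass (adjusted p 0.115), and it passed without the MBD-deleted line. Without LIF the lacking lines were above all retaining lines, by 0.28 ± 0.08 with an adjusted p of 0.0309. This was lost under 7 of 18 alternatives, among them the title run as a covariate (0.29, adjusted p 0.0736), and without MBD3b, the empty vector line, the coiled-coil-deleted line or the doubly deleted line.

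Cdk2ap1, which encodes a small NuRD subunit, had the largest mean response of the 9 over all lines and in the retaining lines. In the lacking lines that of Mta3 was larger. Within the second run of titles, over all its lines, those of Mta3 (0.52) and Mta1 (0.50) exceeded that of Cdk2ap1 (0.38). In the MBD-deleted line, too, Mta1 (0.92) and Mta3 (0.70) were above Cdk2ap1 (0.61). Its signal with LIF was 9.53 for EBRTcH3, 9.36 in MBD3a, 9.40 in MBD3b, 9.71 in MBD3c, 9.65 in the MBD-deleted line, 10.23 in the coiled-coil-deleted line, 10.18 in the doubly deleted line and 9.97 with the empty vector. After withdrawal it was 10.30, 10.59, 10.45, 10.48, 10.26, 10.61, 10.33 and 10.66. The lacking lines were above every retaining line with LIF and the classes overlapped without it. It rose by 0.71 ± 0.11 over all lines, a 1.63-fold change (adjusted p 0.00206), in 8 of 8 lines. The rise was 0.89 ± 0.11 in the retaining lines (adjusted p 7.94e-05). In the lacking lines the change was 0.41 ± 0.14 (adjusted p 0.169). The difference of the response, -0.48 ± 0.17, did not pass (adjusted p 0.104). With LIF the class difference was 0.60 ± 0.12 with an adjusted p of 0.00634, and without LIF it was 0.12 ± 0.11 with an adjusted p of 0.5. The difference with LIF was lost only within the runs of titles, where it was 0.47 and 0.55.

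Hdac1, a deacetylase subunit, had 2 probe sets. The one with the higher mean names chromosome 17 in its identifier, whereas Hdac1 lies on chromosome 4 (129516104 to 129542646) and the pseudogene Hdac1-ps on chromosome 17, so its values are uncertain. On that set the signal was 11.42 to 11.79 with LIF in the retaining lines and 11.74 to 11.79 in the lacking lines, and 11.68 to 11.81 and 11.75 to 11.95 without LIF. No class difference or response of this first set passed, and lacking minus retaining lines without LIF was 0.10 ± 0.07 (adjusted p 0.4). The second set, which names chromosome 4, was 10.97 to 11.06 in the retaining lines and 10.96 to 11.06 in the lacking lines with LIF. Without LIF it was 10.92 to 11.05 and 11.08 to 11.18, so the classes overlapped with LIF and not without it. The second set was not tested on its own, since the fit took 1 probe set per gene.

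**Figure D2:**
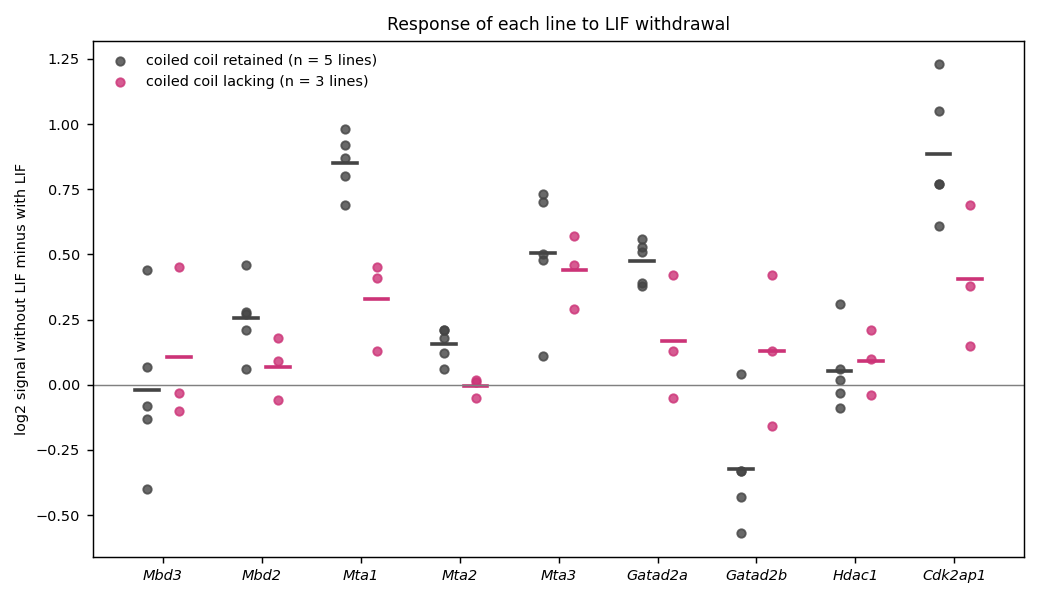
Change of log2 signal on LIF withdrawal, without minus with LIF, in each line, for the 9 measured members. Points are single lines, grey for the 5 that retain a coiled coil and pink for the 3 that lack it, and bars are class means. Mta1 is 0.69 to 0.98 in the retaining lines and 0.13 to 0.45 in the lacking lines, with no overlap.

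Across the members, 4 of 9 rose over all lines (Cdk2ap1, Mta1, Mta3 and Gatad2a) and 0 fell. Of all tested genes 25.0% passed that comparison and 15.1% rose, and the median response was 0.19 over the members against 0.02 over all tested genes. These 4 calls were kept under every alternative run except the fit within the second run of titles, which holds 3 lines. There the responses were 0.38 for Cdk2ap1, 0.50 for Mta1, 0.52 for Mta3 and 0.21 for Gatad2a. In the retaining lines 5 members rose and 1 fell, where 35.8% of all tested genes passed, 21.3% higher and 14.5% lower. In the lacking lines 0 of 9 passed in limma, where 2.93% of all genes passed, and 3 members (Mta3, Mta1 and Cdk2ap1) had an unadjusted p under 0.05. Of the class differences with LIF, 3 of 9 members were higher in the lacking lines (Cdk2ap1, Mta3, Gatad2a), against 14.1% of all genes passing and 7.65% higher. With the title run as a covariate the 3 that passed were Cdk2ap1, Gatad2a and Mbd2. Without LIF, 2 members were higher (Mta3, Gatad2b) and 1 lower (Mta1), against 20.9% passing, 8.55% higher and 12.4% lower. The comparisons share samples, so they are not independent of each other. Only 1 line of each class is present in one of the runs of titles, the empty vector line among the lacking lines in the first and the MBD-deleted line among the retaining lines in the second.

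**Figure D3:**
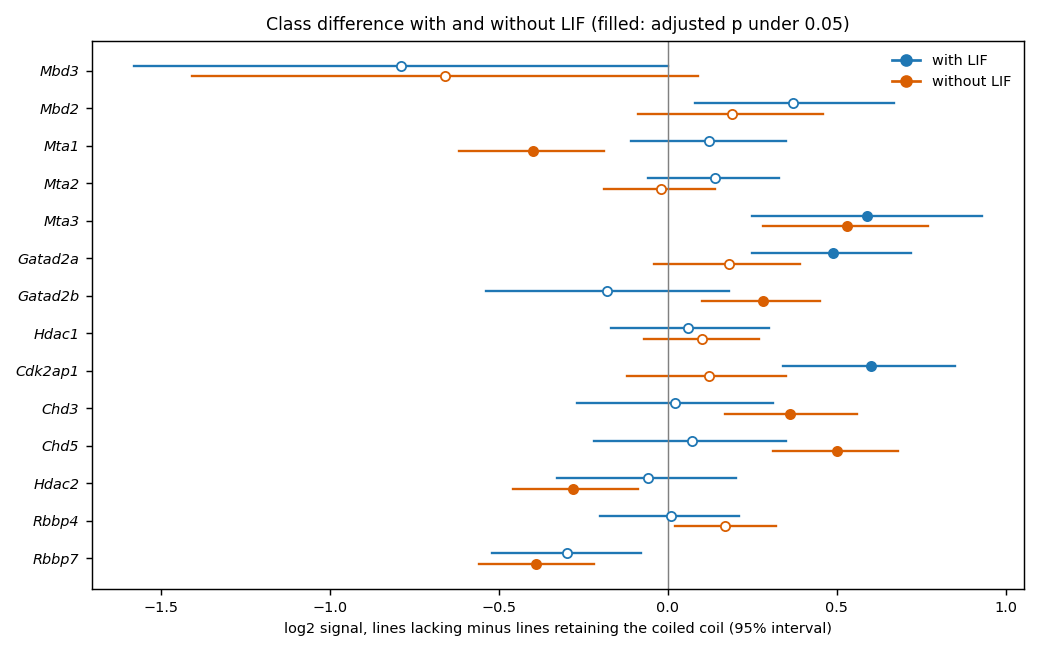
Difference of log2 signal between lines lacking (n = 3) and retaining (n = 5) the coiled coil, with 95% intervals, with LIF (blue) and without it (orange). Filled points passed at an adjusted p under 0.05. Cdk2ap1 passed with LIF (0.60) and not without LIF (0.12), whereas Mta3 passed in both conditions.

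Differences between single constructs have 1 array on each side and no replicate check. Against MBD3a, 0 of 9 members differed by at least 1.5-fold in the MBD-deleted line in either condition, where 6.75% of all tested genes did with LIF and 6.2% without it. In the coiled-coil-deleted line Cdk2ap1 was the only such member with LIF, at 0.87 above MBD3a, and 12.6% of all genes reached that fold. Without LIF no member did, against 12.9% of all genes. In the doubly deleted line 3 of 9 members reached that fold with LIF, Mbd3 (-0.61), Mta3 (0.67) and Cdk2ap1 (0.82), against 15.3% of all genes, and without LIF no member did, against 15.2%. The deletion lines and MBD3a are in different runs of titles.

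Of the 5 further subunit genes, 4 differed between the classes without LIF (Rbbp7 and Hdac2 lower, Chd3 and Chd5 higher in the lacking lines), where 20.9% of all tested genes passed. Rbbp7, a histone-binding subunit gene, was 11.72 to 11.85 in the retaining lines and 11.33 to 11.63 in the lacking lines with LIF. After withdrawal it was 11.83 to 12.04 and 11.54 to 11.62. The classes did not overlap in either condition. The difference was -0.39 ± 0.07 (adjusted p 0.00489) without LIF and -0.30 ± 0.10 (adjusted p 0.0715) with LIF, which passed without the empty vector line. Hdac2, the other deacetylase gene, was 9.73 to 9.94 in the retaining lines and 9.43 to 9.66 in the lacking lines without LIF, a difference of -0.28 ± 0.08 (adjusted p 0.0381) that was lost under 10 of 18 alternatives, among them leaving out MBD3a, MBD3b, MBD3c, the empty vector, the MBD-deleted or the doubly deleted line. Chd3 and Chd5, alternative CHD ATPase genes, were higher in the lacking lines without LIF. Chd3 was 7.83 to 8.17 in the retaining lines against 8.33 to 8.42 (difference 0.36 ± 0.09, adjusted p 0.0153), and the call was lost without the empty vector or the coiled-coil-deleted line. Within the first and second run of titles the differences were 0.35 and 0.54 for Chd3, -0.47 and -0.23 for Rbbp7, and -0.36 and -0.34 for Hdac2, none of which passed. Chd5 was 6.46 to 6.70 against 6.99 to 7.17 (difference 0.50 ± 0.08, adjusted p 0.00214), and 0.58 (passed) and 0.37 (not passed) within the first and second run. Chd5 also fell by 0.41 in the retaining lines on LIF withdrawal (adjusted p 0.00643), in 5 of 5 lines. The response of Chd5 differed between the classes by 0.43 ± 0.16, which did not pass (adjusted p 0.105) but passed without the MBD-deleted line. Rbbp4 did not pass in any of these comparisons, with adjusted p-values of 0.118 or more. Its classes did not overlap without LIF, at 10.85 to 10.95 in the retaining and 11.02 to 11.12 in the lacking lines. Nor did its response, at -0.30 to 0.04 and 0.05 to 0.11. Over all lines 0 of the 5 passed for LIF withdrawal in limma, against 25.0% of all tested genes, with 3 at an unadjusted p under 0.05 (Rbbp7, Chd5 and Hdac2). Some alternatives gained a call. Chd5 passed with the title run as a covariate (-0.25, adjusted p 0.0205), within the first run (-0.43, adjusted p 0.00857) and without the doubly deleted line. Hdac2 passed within the first run (-0.27, adjusted p 0.0347) and without the MBD-deleted line, and Rbbp7 without the empty vector line.

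**Figure D4:**
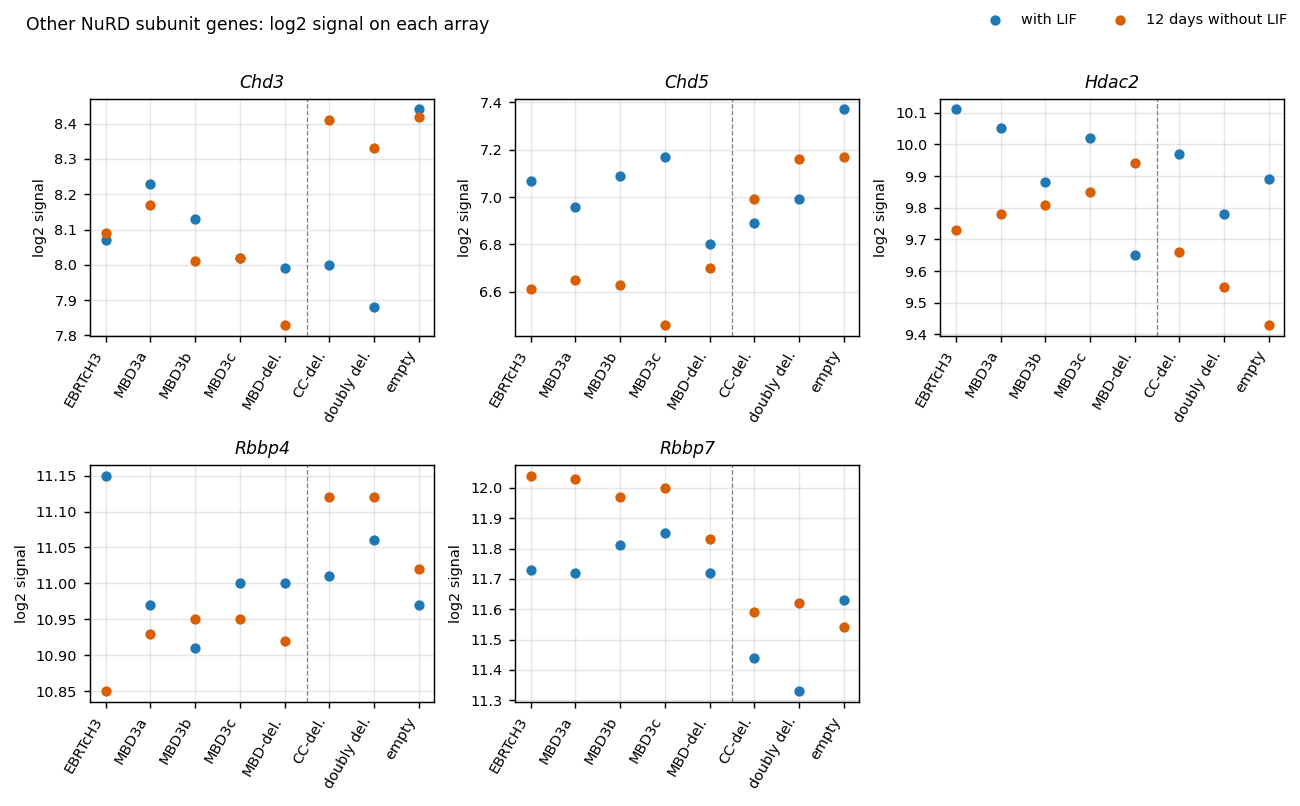
Log2 signal of 5 further NuRD subunit genes on each array, with LIF (blue) and after 12 days without it (orange). Lines right of the dashed line lack an MBD3 coiled coil. Without LIF, Rbbp7 is 11.83 to 12.04 in the retaining lines and 11.54 to 11.62 in the lacking lines.

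Genes known to work with NuRD or to share its deacetylases were counted from lists of known names. Of 17 genes of NuRD partner proteins, 4 rose and 5 fell over all lines, where 25.0% of all tested genes passed and 15.1% rose. Among them were Sall1 at -1.38 ± 0.33 (adjusted p 0.013), Bcl11a at 0.76 ± 0.09 (adjusted p 0.000413) and Zfpm1 at 0.65 ± 0.20 (adjusted p 0.0378). These are transcription factors or cofactors that recruit or bind the complex. Within the second run of titles their changes were -0.21, 0.70 and 0.01, and none passed. In the difference of the response, where 12.1% of all tested genes passed, 2 of the 17 were higher and 2 lower in the lacking lines, among them Sall1 (1.87 ± 0.38, adjusted p 0.00919), Zfpm1 (-1.10 ± 0.25, adjusted p 0.0155) and Pwwp2a (0.88 ± 0.19, adjusted p 0.0131). In the retaining lines Sall1 changed by -2.08 (adjusted p 4.36e-05). The differences of the response of Sall1, Zfpm1 and Pwwp2a were lost without the doubly deleted line, and that of Sall1 also without the coiled-coil-deleted line. Within the second run of titles none of the 3 passed, and within the first run Pwwp2a did not (0.70).

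Of 12 measured genes of the SIN3 complex, another HDAC1/2 complex, 1 rose and 2 fell over all lines, with Arid4a at -0.57, Arid4b at -0.35 and Ing2 at 0.28. In the difference of the response 2 of the 12 were higher in the lacking lines, against the same 12.1% of all genes, Brms1l by 0.75 ± 0.14 (adjusted p 0.0068) and Sin3b by 0.44 ± 0.11 (adjusted p 0.0299). Neither passed within a run of titles, where Brms1l was 0.65 and 0.72 and Sin3b 0.43 and 0.48. That of Sin3b was also lost without MBD3a, MBD3b, MBD3c, the empty vector line, the coiled-coil-deleted line or the doubly deleted line. Of 12 measured genes of other HDAC1/2 complexes, 3 rose and 2 fell over all lines, among them Trerf1 at 0.56 and Rcor2 at 0.51, which rose, and Mier3 at -0.44, which fell. Among 9 other remodellers Smarca4 (0.36) rose and Ino80 (-0.44) fell, and among 9 proliferation genes Aurkb (0.47) rose and Mcm5 (-0.20) fell. Over all tested genes 25.0% passed that comparison. Of the genes named here for it, none passed within the second run of titles. The calls of Zfpm1, Arid4a, Arid4b and Mcm5 over all lines were each lost without EBRTcH3, without MBD3a, without MBD3b or without MBD3c, that of Zfpm1 also without the empty vector or MBD-deleted line, that of Arid4b without the empty vector line, and that of Mcm5 without the MBD-deleted or doubly deleted line.

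Over the 16 arrays the members followed one another to different degrees, as a description over arrays that share lines and conditions. The signal of Gatad2a and Cdk2ap1 had a Pearson r of 0.88, Mta3 and Gatad2a 0.76, and Mta1 and Cdk2ap1 0.74, while Mta1 and Gatad2b had -0.56. The pairs Mbd2 and Mta2, Mta2 and Cdk2ap1, and Mta3 and Cdk2ap1 also had 0.74. Mbd3 had -0.38 (Mbd2) to 0.01 (Mta2) with the other members. The level of r between other pairs of genes was not examined. The genes whose signal was most like that of a member, over all 16 arrays, were Kctd13 (0.96) and Tjap1 (0.96) for Mta1, Spindoc (0.95) and Arhgap22 (0.95) for Mta3, Nedd8 (0.94) and Dnmt3a (0.94) for Gatad2a, and Mfap5 (0.98) and Anxa6 (0.97) for Cdk2ap1. For Gatad2b they were Synj1 (0.95) and Srcap (0.93), for Mta2 Traf7 (0.95) and Rhbdf2 (0.94), for Mbd2 Elf1 (0.89) and Mideas (0.87), for Mbd3 Zfp454 (0.84) and Mad2l1bp (0.82), and for Hdac1 Ipo9 (0.87) and Fam160b1 (0.84). Mfap5 was dim, at 4.68 to 6.29, where the filter level was 4.24 to 4.38.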

How the data were processed

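Expression was measured on 16 arrays. Per the submitters' processing notes the authors made the deposited log2 values with RMA in the affy package, and neither label nor file header names a version, probe set definition or build. Of 65770 probe sets, 27 had no value, 30439 carried a single gene symbol, 2146 several and 33185 none. Symbols were updated by Entrez identifier with a table of GRCm38.p6 (22653 matched, 827 updated). A gene was tested if it exceeded its array's 40th percentile on 3 or more arrays. Paired fits held the cell line as a block, since both arrays of a line share it per the labels. The correlation of same-line deviations was -0.05 to 0.28. Fits used limma (version 3.58.1, under R 4.3.3), with Benjamini-Hochberg adjustment over all tested genes and a threshold of 0.05. The code was run on simulated data with the spread of the EBRTcH3, MBD3a, MBD3b and MBD3c responses and no run effect. That simulation does not give the rate of false calls in these data. The members, lists and comparisons were chosen with earlier results of these data known. The number of arrays limits the precision. Named genes are the members, the 5 other subunits, and per list the 3 largest changes that passed.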

Additional observations from a re-analysis of the deposited data

Results flagged for a closer look

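Among the 5 retaining lines with LIF, 3 values stood far from the other lines. Mta2 in EBRTcH3 was 10.43, where the other 4 lines were 10.28 to 10.30. Gatad2b in the MBD-deleted line was 10.05, where the other lines were 10.56 to 10.63. Hdac1 in the MBD-deleted line was 11.42, where the others were 11.73 to 11.79, and its probe set is uncertain. The Gatad2b and Hdac1 values come from the same array, and the MBD-deleted line is the only retaining line in the second run of titles. In all, 28 groups were examined and 3 held such a value, where chance gives about 1 in 20 for a single group. The groups share arrays, so the count was not tested against that rate.

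The response of Mta1 to LIF withdrawal differed between the classes by -0.52 by a test of the difference itself. This call was lost under 8 of 19 alternatives. Of the 9 members tested 1 passed, against 12.1% of all tested genes.
The same test passed for the partner genes Sall1 (1.87), Zfpm1 (-1.10) and Pwwp2a (0.88), and for the SIN3 complex genes Brms1l (0.75) and Sin3b (0.44). In the same order, these calls were lost under 3, 2, 3, 2 and 8 of 19 alternatives.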

How the results depend on the processing

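Of 1929 values of members and other named genes under an alternative, 1680 kept their direction and side of the threshold, 127 lost and 41 gained the call, 78 that had no call changed sign, and 3 called values reversed. Those 3 lay within the second run of titles: Gatad2b in the retaining lines (0.04), Arid4a (0.01) and Arid4b (0.02) over all lines.

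For LIF withdrawal over all lines, 4 members and 5715 genes passed, 0 and 18 within the second run, and 4 to 5 and 3646 to 6847 when a line was left out. For the retaining lines 6 members and 8181 genes passed, 0 and 0 within the second run, and 4 to 6 and 6650 to 8388 when a line was left out. For the lacking lines 0 members and 670 genes passed. Members passing numbered 1 with quantile normalization, 2 with array weights and 1 with the title run as a covariate. Genes numbered 1661 with array weights, 1145 with the run as a covariate, 85 within the first run, 0 within the second, and 113 to 1053 when a line was left out. For the difference of the response 1 member and 2759 genes passed. Members numbered 0 with median centring, with the run as a covariate, and within the first and the second run, 3 with array weights, and 0 to 2 when a line was left out. Genes numbered 5455 with array weights, 753 within the first run, 0 within the second, and 1352 to 3918 when a line was left out. For the class difference with LIF 3 members and 3233 genes passed, 1 and 707 within the first run, 0 and 0 within the second, 5373 genes with array weights, and 1 to 3 and 1780 to 3873 when a line was left out. Without LIF 3 members and 4791 genes passed, 1 and 1857 within the first run, 0 and 0 within the second, and 1 to 3 and 3013 to 5444 when a line was left out. Fewer lines enter the fits within a run, 5 in the first and 3 in the second. The cause of the other changes was not tested.

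Without the replicate block by line, 4 members and 5190 genes passed over all lines, 5 and 8259 for the retaining class, 0 and 693 for the lacking class, and 2913 genes for the difference of the response. The number of arrays, 1 per line and condition, sets the precision.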
